A study of Mus musculus with 6 samples.

Results

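The B cell identity genes are 9 genes that mark the B lymphocyte lineage: Cd79a, Cd79b, Ms4a1, Cd22, Blk, Pax5, Ebf1, Prdm1 and Xbp1. They were taken by symbol, with case ignored, from 6 mouse tissue sections in which a histone mark was profiled over the spots of a barcoded DNA array, and all 9 stand among the 19378 genes of the most complete section. The sections were an H3K27ac section of an adult paw with collagen-induced arthritis (CIA) at 42 days, an H3K27ac section of an adult control paw at 42 days, H3K27me3, H3K27ac and H3K4me3 sections of wild-type E11.5 embryos, and an H3K4me3 section of adult wild-type brain. Paws were decalcified, embedded in paraffin and cut at 4 µm near the talus. The embryo and the brain were frozen and cut at 16 µm and 20 µm. The labels give no strain, sex or number of animals. Each combination of tissue, condition and mark is 1 section, so differences between sections carry no p-value and the spots of a section are not replicates.

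B lymphocytes detect antigen through a membrane immunoglobulin whose signal is carried by the paired chains CD79A and CD79B. Kinases of the Src family such as BLK relay that signal, CD22 restrains it, and MS4A1 (CD20) is a surface protein of the B cell membrane. EBF1 and PAX5 set up and hold the B cell programme, while PRDM1 (Blimp-1) ends it and XBP1 drives the secretory machinery of the plasma cell that follows. Several of the 9 are used elsewhere as well: Xbp1 acts in many secretory cells, Ebf1 in mesenchymal and neural cells, Pax5 in the embryonic midbrain and hindbrain, and Prdm1 in epithelia and germ cell precursors. H3K4me3 marks active promoters, H3K27ac active promoters and enhancers, and H3K27me3 genes held silent by Polycomb complexes.

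RefSeq promoter windows of GRCm38.p6, 250 bases before to 50 bases after the start, were matched for 6 of the 9 genes, namely Cd79a, Cd22, Pax5, Ebf1, Prdm1 and Xbp1. The windows of Cd79a and Xbp1 are shown because their H3K27ac reads differed most between the paws among the matched genes, and that of Pax5 because it was the member with the highest ratio. Capitals mark matches on either strand to CAGGTG, an E-box bound by E proteins such as TCF3, to AGGAAG, a core of ETS factor sites, and to ACGT, the core that XBP1 binds.
Cd79a, chr7:24897247-24897546, plus strand: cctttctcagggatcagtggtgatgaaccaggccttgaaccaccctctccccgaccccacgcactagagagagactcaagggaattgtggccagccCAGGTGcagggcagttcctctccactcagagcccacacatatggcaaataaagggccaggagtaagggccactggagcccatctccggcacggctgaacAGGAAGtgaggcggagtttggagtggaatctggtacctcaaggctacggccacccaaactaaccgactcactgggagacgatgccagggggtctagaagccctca
Xbp1, chr11:5520391-5520690, plus strand: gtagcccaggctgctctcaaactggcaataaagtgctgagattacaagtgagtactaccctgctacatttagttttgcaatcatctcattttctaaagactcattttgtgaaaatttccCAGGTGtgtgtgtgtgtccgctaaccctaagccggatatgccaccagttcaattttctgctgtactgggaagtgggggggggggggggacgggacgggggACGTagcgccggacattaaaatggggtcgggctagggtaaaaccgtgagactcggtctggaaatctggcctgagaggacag
Pax5, chr4:44710645-44710944, minus strand: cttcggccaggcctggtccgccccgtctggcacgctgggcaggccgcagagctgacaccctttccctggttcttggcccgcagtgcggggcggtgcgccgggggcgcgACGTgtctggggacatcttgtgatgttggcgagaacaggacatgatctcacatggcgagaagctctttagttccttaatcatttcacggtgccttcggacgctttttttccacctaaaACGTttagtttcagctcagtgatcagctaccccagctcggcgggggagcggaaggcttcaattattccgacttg
The window of Cd79a held 8 CpG dinucleotides and that of Xbp1 10, against 23 in that of Pax5 and a median of 7 over 32851 promoter windows. CAGGTG was found in the windows of Cd79a, Cd22, Prdm1 and Xbp1, and in 20.2% of all windows. AGGAAG was found in those of Cd79a and Prdm1 (35.4% of all windows), and ACGT in those of Pax5 and Xbp1 and in 1 of the 2 windows of Ebf1 (30.9% of all windows). The octamer ATGCAAAT was in none of the 7 member windows and in 1.74% of all windows. These matches describe letters, and no factor binding was measured.

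The sections held 403483 to 5981684 reads over 248 to 1200 spots, and the mean gene held 480 reads in the arthritic paw, 309 in the control paw, 180 in the brain and 22.3 to 39.4 in the embryo. All 4 bone markers were listed in both paws, at a median rank above 68.7% of genes in the arthritic paw and 80.0% in the control paw. All 4 neuronal markers were listed in the brain, above 71.5%. The same bone markers ranked above 84.7% of genes in the brain and 81.3% to 90.7% in the embryo sections. The rank of the bone markers thus did not set the paws apart from the other tissues. A level is a gene's summed reads divided by that mean, with an exact Poisson interval at the 95% confidence level. Intervals cover at most the counting error of independent reads, and no spread between animals or sections. Amplified fragments were not collapsed to molecules, so reads may not be independent and the intervals may be too narrow. Whether intervals overlap is therefore a description. Reads were not divided by the width counted for each gene, so levels are compared between sections of a gene and not between genes. Ranks among genes and positions against the mean gene carry the same limit and are descriptions. A spot can hold several cells, and fewer B lineage cells cannot be told apart from less of the mark per cell.

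The files did not list all members in every section. The arthritic paw listed 7 members and lacked Cd79b and Cd22, and the brain listed 6 and lacked Pax5 as well. The control paw and the 3 embryo sections listed all 9. Sections with fewer listed genes had mostly lost genes of few reads: of the control paw's genes, the arthritic paw listed 18.7% of the 4844 with fewest control reads and 83.6% of the 4845 with most. Cd79b and Cd22, with 62 and 50 reads in the control paw, stood among those with fewest, so their missing entries give no level in the arthritic paw. Of the 49 levels listed, 13 were above the mean gene of their section. These were 0 of 7 in the arthritic paw, 4 of 9 in the control paw and 3 of 6 in the brain. In the embryo they were 1 of 9 under H3K27me3, 3 of 9 under H3K27ac and 2 of 9 under H3K4me3. Most genes lay below these means, and the exact share was not computed. Xbp1 at 0.943 in the arthritic paw exceeded 71.6% of its genes, and Prdm1 at 0.956 in the control paw 76.4%. By rank, 5 of 7 members in the arthritic paw, 6 of 9 in the control paw and 5 of 6 in the brain exceeded over 50% of genes. The counts against the mean therefore show no lack of reads at the members. The means of the arthritic paw and the brain were taken over shorter lists, which lowers their levels against the other sections. Over the genes that both paws list, Blk in the control paw stood at 0.902, below the mean. Ebf1 then stood at 0.718 in the arthritic paw and 0.699 in the control paw.

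**Figure D1:**
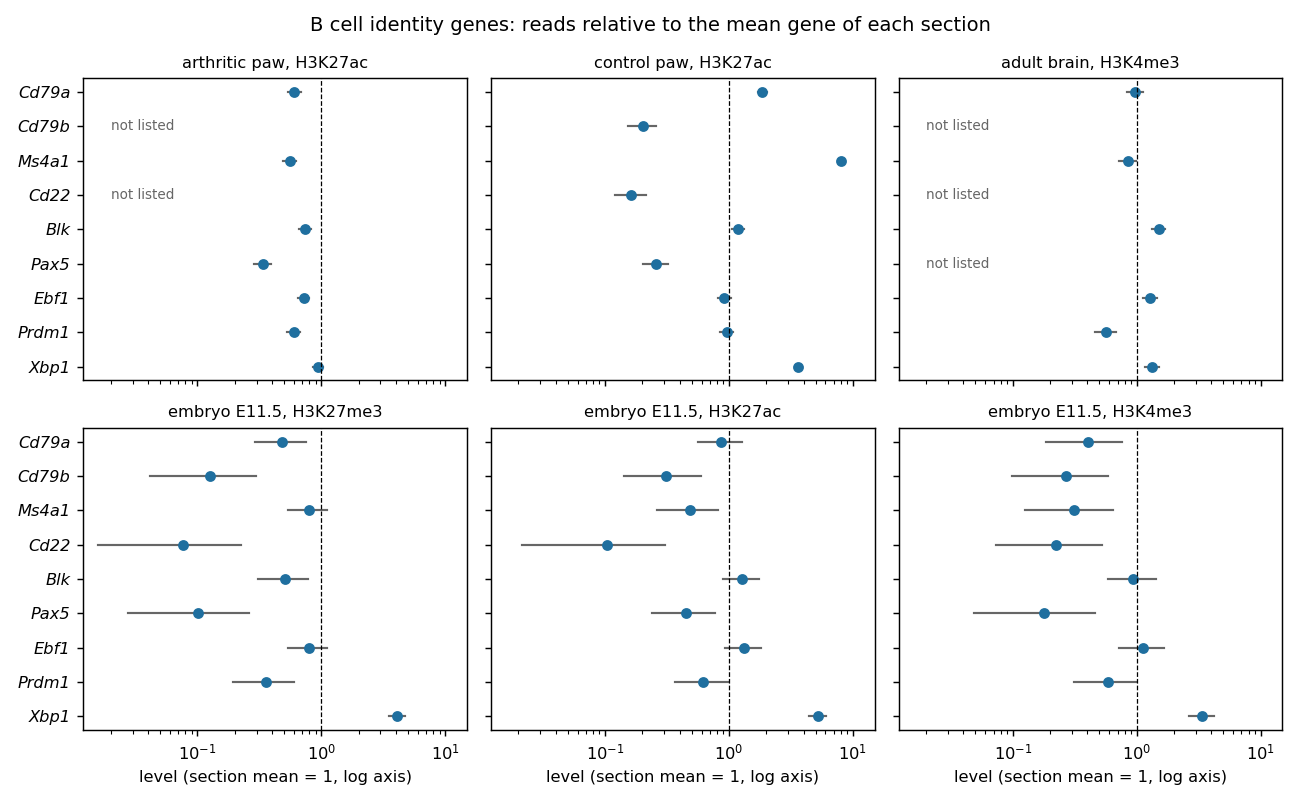
Level of each B cell identity gene in 6 sections (reads divided by the mean gene of the section, log axis; the dashed line is the section mean of 1; bars are 95% Poisson counting intervals, 1 section per panel). Ms4a1 stood at 0.556 in the arthritic paw and 7.99 in the control paw, and Xbp1 was above 3 in the control paw and in all 3 embryo sections.

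Among surface and receptor genes, Ms4a1 differed most between the paws. It held 267 reads in the arthritic paw, a level of 0.556 (interval 0.491 to 0.627), and 2465 reads in the control paw, a level of 7.99 (7.67 to 8.31). The control paw section was thus the high one, with Ms4a1 above 98.7% of its genes, against 48.5% in the arthritic paw. The embryo held 31 reads under H3K27me3, 14 under H3K27ac and 7 under H3K4me3, and the brain 152. Their levels of 0.788, 0.483, 0.313 and 0.847 had intervals that overlapped, apart from those of the brain and embryo H3K4me3. The control paw's interval did not overlap that of any other section.

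Cd79a, which encodes the alpha chain of the receptor's signalling pair, was also high in the control paw. It held 291 reads in the arthritic paw (level 0.606, 0.538 to 0.680) and 572 in the control paw (1.85, 1.70 to 2.01). The embryo held 19 reads under H3K27me3, 25 under H3K27ac and 9 under H3K4me3, at levels of 0.483, 0.863 and 0.403, and the brain 174 at 0.969. Only the control paw stood above its section mean by more than the counting interval. Cd79b, the beta chain of the same pair, held 62 reads in the control paw, a level of 0.201 (0.154 to 0.257). In the embryo it held 5, 9 and 6 reads under H3K27me3, H3K27ac and H3K4me3. The arthritic paw and the brain list no Cd79b, so it enters no comparison of the paws.

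Cd22, the inhibitory co-receptor, had the fewest reads of the 9 in the control paw, with 50 (level 0.162, 0.120 to 0.214). The embryo sections held 3, 3 and 5 reads of it under H3K27me3, H3K27ac and H3K4me3. With so few reads, no order among the embryo marks was detectable. Blk, the Src family kinase, held 355 reads in the arthritic paw (0.739, 0.664 to 0.820) and 365 in the control paw (1.18, 1.06 to 1.31). It held 20, 37 and 21 reads in the embryo under H3K27me3, H3K27ac and H3K4me3, at 0.508, 1.28 and 0.940, and 272 in the brain at 1.52 (1.34 to 1.71). The brain's interval lay above those of both paws, though the brain was profiled for another mark.

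Of the transcription factors of B cell commitment, Pax5 held 162 reads in the arthritic paw (0.337, 0.287 to 0.394) and 79 in the control paw (0.256, 0.203 to 0.319). In the embryo it held 4 reads under H3K27me3, 13 under H3K27ac and 4 under H3K4me3, at 0.102, 0.449 and 0.179. Pax5 stayed below the mean gene in all 5 sections that list it. Ebf1 held 345 reads in the arthritic paw (0.718, 0.645 to 0.798) and 283 in the control paw (0.917, 0.813 to 1.03). Its embryo reads were 31, 38 and 25 under H3K27me3, H3K27ac and H3K4me3, at 0.788, 1.31 and 1.12, and the brain held 230 at 1.28. The brain's interval of 1.12 to 1.46 lay above those of both paws, while the intervals of the embryo marks all overlapped.

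The plasma cell regulators differed from each other. Prdm1 held 287 reads in the arthritic paw (0.598, 0.531 to 0.671) and 295 in the control paw (0.956, 0.850 to 1.07). The embryo held 14, 18 and 13 reads of it under H3K27me3, H3K27ac and H3K4me3, at 0.356, 0.621 and 0.582, and the brain 101 at 0.563. No level of Prdm1 exceeded its section mean. Xbp1 held 453 reads in the arthritic paw (0.943), a lower bound because 11.0% of them lay where reads could not be counted exactly, and 1121 in the control paw (3.63, 3.42 to 3.85). The embryo held 161 reads under H3K27me3 (4.09, 3.48 to 4.77), 151 under H3K27ac (5.21, 4.41 to 6.11) and 75 under H3K4me3 (3.36, 2.64 to 4.21), and the brain 238 (1.33, 1.16 to 1.51). In the embryo Xbp1 exceeded 95.6% to 97.4% of genes under all 3 marks, the silencing mark included. These ranks include the unknown width counted for each gene, and whether Xbp1 carried each mark above background was not tested.

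The comparison of the paws asks how H3K27ac at these genes differs in an inflamed joint. For it, levels in both sections were rescaled to the mean over the 11130 genes that both list, a pseudocount of 0.1 was added, and 2-fold was the threshold for a call. Of the 7 members compared, 3 were lower by 2-fold or more, against 7.88% of all genes, and 0 were higher, against 11.6% of all genes. The members were chosen with earlier results in view, so the 42.9% they make is a description. The median of the 7 log2 ratios was -0.26, against 0.11 over all genes, and 6 of the 7 lay below that value.

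Ms4a1 stood at a rescaled level of 0.556 in the arthritic paw and 6.09 in the control paw, a log2 ratio of -3.24 (counting interval -3.40 to -3.08), or 9.44-fold lower. Only 1.07% of the genes compared had a lower ratio. Xbp1 stood at 0.943 in the arthritic paw and 2.77 in the control paw, a log2 ratio of -1.46 (-1.61 to -1.31), and because its arthritic sum is a lower bound the true difference may be smaller. Cd79a stood at 0.606 in the arthritic paw and 1.41 in the control paw, a log2 ratio of -1.10 (-1.28 to -0.92). Cd79a was thus the member just past the threshold, and its interval reached across it. With a pseudocount of 1, Cd79a stood at -0.59 and Xbp1 at -0.96, both under 2-fold. The nearest members on the other side were Blk at -0.26 (-0.45 to -0.06) and Prdm1 at -0.25 (-0.46 to -0.04). Ebf1 stood at 0.03 (-0.17 to 0.24), and Pax5 at 0.57 (0.29 to 0.84) was the only member above the median of all genes.

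**Figure D2:**
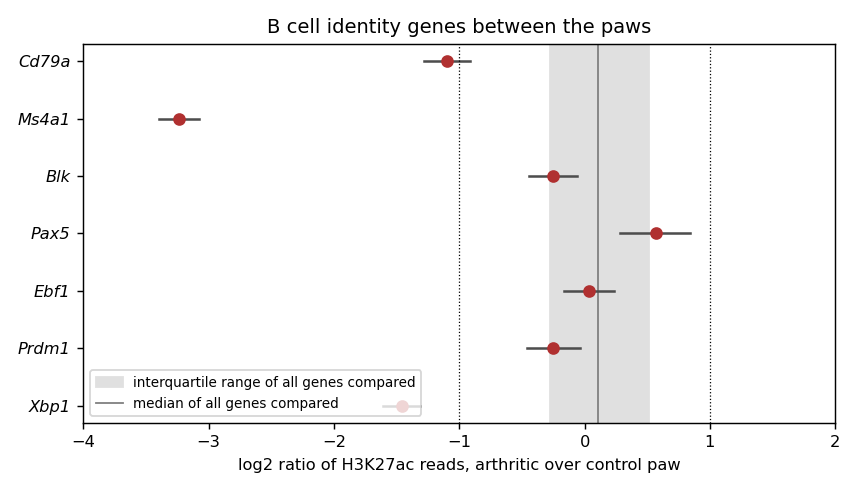
Log2 ratio of H3K27ac reads, arthritic over control paw, for the 7 members listed by both sections, with 95% counting intervals. The grey band is the interquartile range of the 11130 genes compared, the solid line their median of 0.11 and the dotted lines the 2-fold thresholds; Ms4a1 at -3.24, Xbp1 at -1.46 and Cd79a at -1.10 lie past the lower one.

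The low ratio of Ms4a1 was spread over the section and not carried by a few spots. Ms4a1 had a read in 229 of 943 spots of the arthritic paw (24.3%, exact interval 21.6% to 27.2%) and in 482 of 554 spots of the control paw (87.0%, 83.9% to 89.7%). Genes with a similar number of reads were in a median of 23.4% of spots in the arthritic paw and 88.1% in the control paw, close to the shares of Ms4a1. The 10 spots with most reads held 9.36% of its reads in the arthritic paw and 7.34% in the control paw. Cd79a was present in 25.5% of spots of the arthritic paw and 59.0% of those of the control paw. Xbp1 was present in 31.5% of spots of the arthritic paw and 74.0% of those of the control paw. The median spot held 5296 reads in the arthritic paw and 10114.5 in the control paw, and depth alone raises such shares. Prdm1, at a log2 ratio of -0.25, was in 25.5% of spots of the arthritic paw and 40.6% of those of the control paw. Along the array rows of the control paw, cut into 4 bands of rows, Ms4a1 had 22.1%, 24.9%, 23.5% and 29.5% of its reads, against 23.1%, 25.9%, 22.7% and 28.3% of all reads. No band was thus rich in Ms4a1 beyond its depth.

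**Figure D3:**
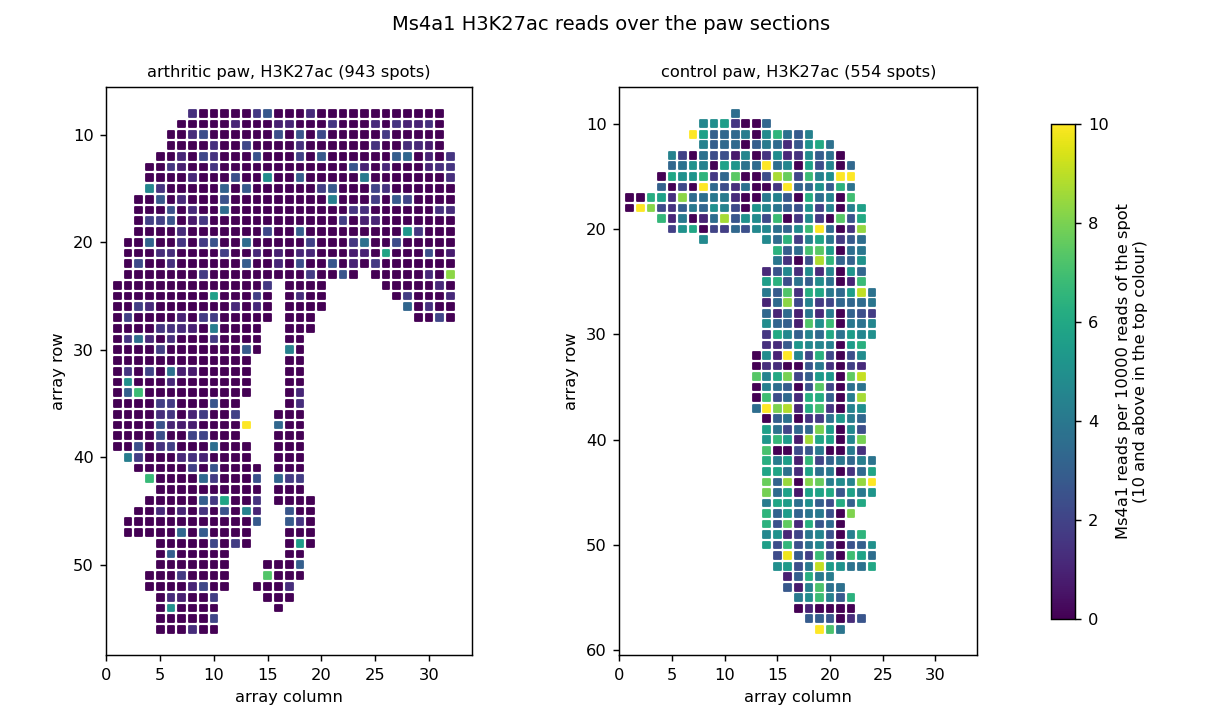
Ms4a1 H3K27ac reads per 10000 reads of each spot, by array column and row, in the arthritic paw (943 spots) and the control paw (554 spots), both on 1 colour scale. Most spots of the arthritic paw hold no read of Ms4a1, while 87.0% of the control spots hold 1 or more and no single region holds them. Control spots are also deeper, with a median of 10114.5 reads against 5296 in the arthritic paw.

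Ms4a1 reads differed by array column in the control paw. In columns 1, 5, 9, 13, 17 and 21, Ms4a1 had 2.03 reads per 10000, against 4.43 in the other columns, a ratio of 0.459 that lay below the range of 0.489 to 2.39 that held the central 90% of genes. In the arthritic paw the ratio was 1.00. The genes whose reads over control spots were most like those of Ms4a1 were Ctsl, a lysosomal protease gene (Spearman's rho 0.434 over 554 spots), and Sez6, a neuronal gene (0.381). Their recovered reads also dipped in these columns, and they too had fewer reads in the arthritic paw section. Ctsl held 187 reads in the arthritic paw against 6404 in the control paw, and Sez6 225 against 6576. Of the control reads, 57.2% for Ctsl and 58.0% for Sez6 lay where reads could not be counted exactly, so their control sums are lower bounds and the depth of their dip is not exact. The correlations are descriptions across spots that share a library and a depth. Blk ran the other way in the control paw, with 1.02 reads per 10000 in these columns and 0.549 in the others. Within these columns alone the log2 ratio of Ms4a1 between the paws was -2.25, and without them it was -3.34. Cd79a stood at -0.63 within them, under 2-fold, and at -1.15 without them, and Xbp1 at -1.21 within and -1.497 without them. The setting of these columns alone was chosen after the data were seen.

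**Figure D4:**
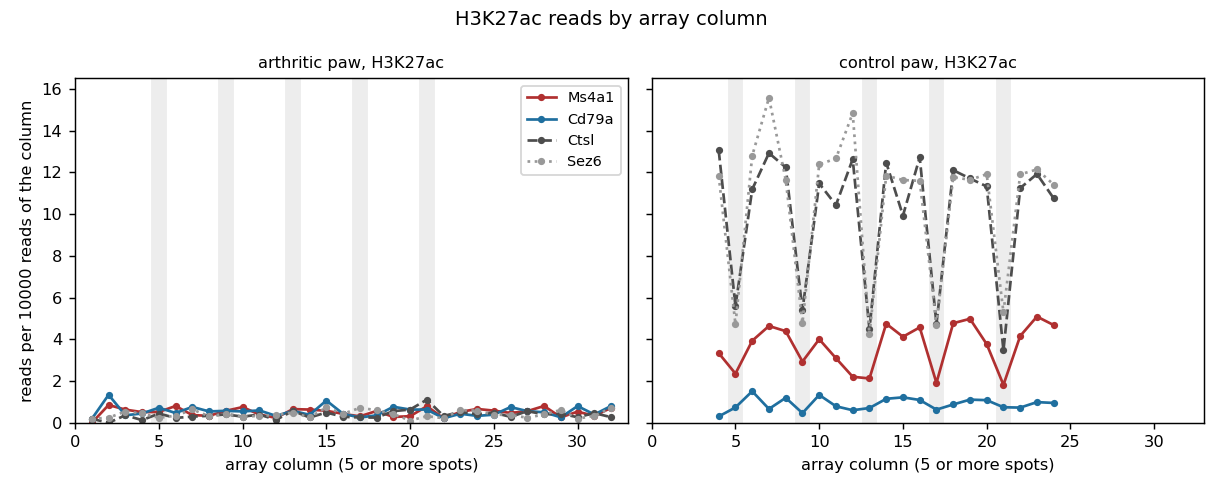
H3K27ac reads per 10000 reads of each array column (columns of 5 or more spots) for Ms4a1, Cd79a, Ctsl and Sez6 in the arthritic and control paws; shaded columns are 5, 9, 13, 17 and 21. In the control paw Ms4a1 averages 2.03 in columns 1 to 21 by steps of 4 and 4.43 elsewhere, dipping where the recovered reads of Ctsl and Sez6 (lower bounds in the control paw) dip, and the arthritic paw shows no such dip.

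Cd79a went together over spots with its genomic neighbour. Arhgef1, which encodes a guanine nucleotide exchange factor, lies beside Cd79a. It was the gene most like Cd79a over spots in the arthritic paw (rho 0.357), the control paw (0.263) and the brain (0.573). The next genes were Metap1 in the arthritic paw (0.163), Tprgl in the control paw (0.247) and L1td1 in the brain (0.190). The lead of Arhgef1 was thus small in the control paw. In the embryo the rho of Cd79a and Arhgef1 was 0.296 under H3K27me3, 0.460 under H3K27ac and 0.328 under H3K4me3. For the other 41 pairs of a member and a neighbouring gene in the paws and the brain, rho ran from -0.06 to 0.11. At most 107 of 291 reads in the arthritic paw, 163 of 572 in the control paw and 95 of 174 in the brain could be reads of both genes. With those taken off, Cd79a stood at -1.20 between the paws, and Arhgef1 itself at -0.33. Whether the counting gave single reads to both genes was not tested.

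In the paws and the brain, the other members had no partner over spots as clear as these. Their highest correlations with any gene were 0.132 to 0.153 in the arthritic paw, 0.198 to 0.228 in the control paw and 0.175 to 0.203 in the brain, while in the embryo Xbp1, the only member with enough spots, reached 0.230 to 0.291. Among the members themselves, rho ran from -0.02 to 0.08 over 21 pairs in the arthritic paw, from -0.04 to 0.16 over 28 pairs in the control paw and from -0.01 to 0.11 over 15 pairs in the brain. In counts this sparse, correlations of that size are no finding.

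The wider B lineage was read from 5 companion lists, which were also drawn up with earlier results of these data known. Of all genes compared between the paws, 11.6% were higher and 7.88% lower by 2-fold, and the counts of each list stand beside those shares. Of 19 genes of receptor signalling, 13 were listed by both paws, with 1 higher and 1 lower by 2-fold and a median log2 ratio of -0.09. Ptpn6, a phosphatase that dampens receptor signals, stood at 1.23 and the paracaspase gene Malt1 at 0.89. Plcg2, the phospholipase downstream of the receptor, stood at -1.06, the kinase gene Btk at -0.87 and the co-receptor gene Cd72 at -0.70. Of 16 further transcription factors, 12 were compared, with 0 higher and 2 lower: Ikzf3 at -1.95 and Tcf3, which encodes the E proteins, at -1.05. Spi1 stood at -0.86, and Irf8, Bcl6 and Ets1 at 0.63, 0.43 and 0.38. The median of these factors was -0.09.

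Genes of B cell precursors, survival and secretion ran both ways. Of the 5 precursor genes compared, Dntt, the terminal transferase of antigen receptor joining, held 684 reads in the arthritic paw and at least 3863 in the control paw (-2.66). Its recovered control reads, a lower bound, were also fewer in the array columns where Ms4a1 dipped. There Dntt had 3.52 reads per 10000, against 6.89 in the other columns. This ratio of 0.511 lay just inside the central range of genes, which began at 0.489. In the arthritic paw the same ratio was 0.772. Whether the low ratio of Dntt between the paws is separate from the column pattern was not tested. Igll1, a surrogate light chain gene, stood at 1.02, Cd93 at 0.23, and the recombinase genes Rag1 and Rag2 at 0.15 and -0.48. Among 9 surface and survival receptors, Tnfrsf13c, the receptor for the survival factor BAFF, stood at 1.68 with 2569 reads in the arthritic paw and 648 in the control paw. Cd27 stood at 1.13 and Cd40 at 0.84, while Cd24a stood at -3.04, Fcer2a at -0.51 and Cd38 at 0.04. That list had 2 higher and 1 lower, and a median of 0.45. Among 8 plasma cell and secretory genes, Tnfrsf17, the plasma cell receptor BCMA, stood at -1.72, Edem1 at -0.42 and Ell2 at -0.16. Ern1, whose product splices the Xbp1 transcript, stood at 1.05, Sec61a1 at 1.03 and Fkbp11 at 0.16. These lists therefore held genes past the threshold on both sides, as did all genes compared, of which 11.6% were higher and 7.88% lower.

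**Figure D5:**
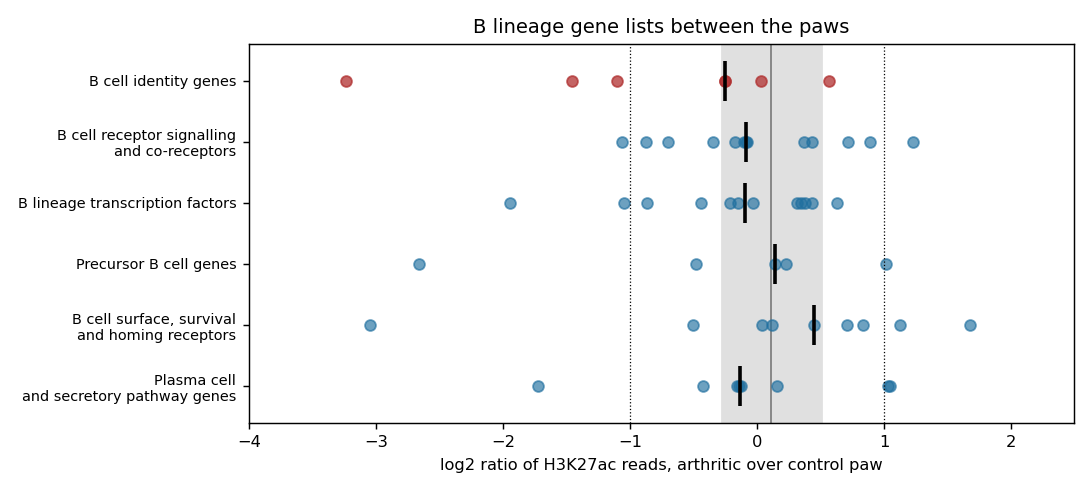
Log2 ratio of H3K27ac reads, arthritic over control paw, for the 7 B cell identity genes (red) and the genes of 5 companion lists (blue), with black ticks at list medians. Grey marks the interquartile range of all 11130 genes, the grey line their median and dotted lines 2-fold; medians run from -0.26 for the B cell identity genes to 0.45 for surface and survival receptors.

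Markers of other cells and tissues were set beside these ratios. The 3 B cell markers that both paws list are members themselves and add nothing to them. For T cells, 5 of 8 markers were compared, with 1 past 2-fold, a median log2 ratio of 0.10 and summed levels of 4.87 in the arthritic paw and 3.20 in the control paw. For neutrophils, 6 of 8 were compared, with a median of -0.67 and sums of 2.87 in the arthritic paw and 6.86 in the control paw. Sums were higher in the arthritic paw for bone (8.19 against 3.38 in the control paw, 4 of 4 markers), epidermis (7.65 against 4.24, 3 of 4) and skeletal muscle (5.09 against 3.21, 4 of 4), with medians of 0.08, 0.72 and 0.16. The sum for cartilage was lower, at 1.11 in the arthritic paw and 2.04 in the control paw (2 of 4, median -0.62). Erythroid markers summed to 1.93 in the arthritic paw and 1.94 in the control paw (3 of 6). The 2 macrophage markers compared had a median of 0.29. No listed marker of these cells was at 0 in either paw, but markers of few reads may be missing from the lists. The arthritic paw listed 2 macrophage markers and the control paw 7. Listed markers of neurons, astrocytes and oligodendrocytes were not at 0 either, so this does not show that a cell type was present. In the arthritic paw single genes held most of several sums: 6.03 for bone, 6.46 for epidermis, 3.08 for muscle and 2.93 for T cells. Higher by 2-fold were 1 of 4 bone, 1 of 4 muscle and 0 of 3 epidermis markers, against 11.6% of all genes. Lower by 2-fold were 1 of 2 cartilage and 1 of 6 neutrophil markers, against 7.88% of all genes. The sums thus rest on few genes and do not show a difference of whole tissues. The part of other tissues in the ratios of the B cell identity genes was not tested.

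In the embryo, the 3 marks were set against each other, each from another section. Between H3K27me3 and H3K27ac, 2 of 9 members were lower under H3K27me3 by 2-fold, against 14.1% of all genes, and 0 were higher, against 10.4%. These were Pax5, with 4 reads under H3K27me3 and 13 under H3K27ac (log2 ratio -1.44, -2.31 to -0.32), and Blk, with 20 and 37 reads (-1.18, -1.91 to -0.46). The median of the members was -0.68, against -0.12 over all genes, and 8 of 9 lay below that of all genes. Ms4a1, with 31 reads under H3K27me3 and 14 under H3K27ac, was the exception at 0.60 (-0.22 to 1.43). Among the members, only the intervals of Pax5 and Blk left out the median of all genes. Cd22, with 3 reads under each mark, stood at -0.21 (-1.25 to 0.90). Cd79b, with 5 reads under H3K27me3 and 9 under H3K27ac, stood at -0.86 (-1.84 to 0.29). The count of members below that median is thus a description. Xbp1, with the most reads, stood at -0.35 (-0.67 to -0.03).

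Between H3K27me3 and H3K4me3, 1 of 9 members was higher under H3K27me3, against 15.1% of all genes, and 0 were lower, against 10.4%. That member was Ms4a1, with 31 reads under H3K27me3 and 7 under H3K4me3 (1.05, 0.05 to 2.04), and with the deposited values it turned to -0.84. Cd22 at -0.90, Blk at -0.82 and Cd79b at -0.73 were the lowest, with intervals that reached past 0 for each. The median was -0.51, against 0.08 over all genes. Between H3K27ac and H3K4me3, 0 of 9 were higher, against 17.8% of all genes, and 0 lower, against 9.17%. Scaled by the median gene, 0 members were higher, against 17.02% of all genes, and 1 was lower, against 15.12%. Pax5 at 0.93 and Cd79a at 0.89 were highest and Cd22 at -0.69 lowest, and Xbp1 at 0.57 (0.17 to 0.97) was the only member whose interval left out 0. In the main setting, scaled by the mean, the member counts in the embryo lay below the shares of all genes, with 1 exception. That was the 22.2% of members lower under H3K27me3 than under H3K27ac, against 14.1% of all genes. Other settings gave higher counts. Under H3K27me3, 3 of 9 were lower than under H3K4me3 with the deposited values (10.4% of all genes) and with median scaling (17.1%). In odd columns, 4 of 9 were lower than under H3K27ac, against 18.6%.

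Between the brain and the embryo under H3K4me3, 2 of 6 members were higher in the brain, against 31.4% of all genes, and 0 were lower, against 5.72%. Scaled by the median gene, 0 members were higher, against 12.7% of all genes, and 1 was lower, against 12.5%. Cd79a held 174 reads in the brain and 9 in the embryo (log2 ratio 1.31, 0.53 to 2.11), and Ms4a1 152 and 7 (1.41, 0.56 to 2.24), against a median of 0.66 over all genes. With the deposited values Ms4a1 turned to -0.72, and without the reads shareable with Arhgef1 Cd79a stood at 0.75, under 2-fold. Blk at 0.89, Ebf1 at 0.44 and Prdm1 at 0.20 were nearer to that value or below it. Xbp1, with 238 reads in the brain and 75 in the embryo, stood at -0.996 (-1.36 to -0.62), just inside the threshold, and only 5.74% of genes had a lower ratio. The median of the 6 was 0.67, close to that of all genes.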

How the data were processed

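Chromatin fragments under 1 histone mark were measured by array spot in 6 sections. The deposited values are signal per gene and spot, which the authors quantile-normalised, as the deposited files are named. The submitters' processing notes name Bowtie2, MACS2 and featureCounts and the builds mm9 and hg19, without their roles. Ties were taken to be ranked in the gene order of the control paw, also for the embryo files, which list genes in another order, so that genes without reads could get values above 0 (Spearman's rho of deposited value with place 0.330 to 0.584). Reads were therefore recovered from the tied ranks, each fall in the order marking 1 further read, which gave 92.9% to 95.4% of the common list's total. The summed reads equalled that list at 98.8% and 99.1% of ranks in the paws and at 37.4% to 51.6% in the other sections. A gene with over 10% of reads beyond the exact range has a lower bound. The recovery assumes that ranking. The decoding was run on data simulated for the paws, the brain and embryo H3K4me3 with ties ranked in the order used to decode. The ranking itself was therefore not tested. Log2 ratios used relative reads with a pseudocount of 0.1 and exact conditional intervals, computed in Python 3.11.15 with scipy 1.17.1. All 9 members were named, companion genes by the 3 highest and 3 lowest ratios (all, in lists of 5 or fewer compared; 1 such gene is not reported here), and likeness by the 2 genes of highest correlation. Settings tried were deposited values, other pseudocounts, median scaling, filters on genes, spots and columns, spot shares, exact entries and shareable reads. The members, lists and tests were chosen with earlier results of these data known.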

Additional observations from a re-analysis of the deposited data

How the results depend on the processing

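Between the paws, Ms4a1 was lower by over 2-fold under all 13 settings (-3.45 to -2.19), Xbp1 under 12 (-1.68 to -0.96) and Cd79a under 10 (-1.46 to -0.59), while Blk, Pax5, Ebf1 and Prdm1 were never past 2-fold. The count of members lower was 1 with a pseudocount of 1 (3.85% of all genes). The median was -0.57 in odd columns and -0.63 in columns 1, 5, 9, 13, 17 and 21 alone. Scaling by the median gene moved the median of all genes in the paws to 0.002, against 0.109, and between brain and embryo to 0.06, against 0.66.

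In the embryo the counts rested on few reads. For H3K27me3 over H3K27ac, the members lower numbered 0 with a pseudocount of 1, 1 without genes of under 20 reads, 1 without spots of few reads and 4 in odd columns (4.05%, 18.6%, 14.4% and 18.6% of all genes in the same order). For H3K27me3 over H3K4me3, the members higher numbered 0 with the deposited values, a pseudocount of 1, genes of under 20 reads left out and odd columns, and 2 in even columns (20.97% of all genes), and the members lower numbered 3 with the deposited values, median scaling, odd columns and spot shares (10.4%, 17.1%, 13.9% and 11.8% of all genes), and 2 with a pseudocount of 0.01 and even columns (16.1% and 14.6%). Ms4a1 turned to -0.84 there with the deposited values. For H3K27ac over H3K4me3, the members higher numbered 3 with the deposited values, 2 with a pseudocount of 0.01, and 1 in even columns, in odd columns, without the 6 columns and with spot shares (18.1% to 26.6% of all genes), and the members lower 2 with the deposited values and 1 with a pseudocount of 0.01, median scaling and even columns (9.84% to 15.1% of all genes).

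For brain over embryo, the members higher numbered 1 with the deposited values, even columns, spot shares and the reads shareable with Arhgef1 taken off (31.4% to 37.2% of all genes), and 0 with a pseudocount of 1 and median scaling (2.03% and 12.7%). The members lower numbered 1 with the deposited values, a pseudocount of 0.01, median scaling, even columns, without the 6 columns and with spot shares (5.78% to 12.5% of all genes). The median was -0.054 with the deposited values and -0.022 with median scaling, and Ms4a1 turned to -0.72 with the deposited values. The cause of these shifts was not tested. No paired analysis was possible because each group holds 1 section. The settings of the 6 columns alone, exact entries and shareable reads were chosen after seeing the data.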
